A study of Mus musculus with 4 samples.

Results

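The 7 solute carrier gene families Slc1, Slc3, Slc6, Slc7, Slc36, Slc38 and Slc43 hold most of the plasma membrane amino acid transporters of the mouse, and their RNA was followed in 4 libraries of cultured liver progenitor-like cells. Members were all rows of the deposited tables whose gene symbol begins with 1 of these family names followed by the letter a and a number. The rule found 64 members among 21878 rows, of which 31 had enough reads for the edgeR test. It also catches Slc7a6os and Slc6a19os, named for lying on the opposite strand beside a transporter gene and not transporters themselves.

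Amino acids cross membranes by exchange, by cotransport with sodium or protons, or by facilitated diffusion, and each family uses some of these modes. Slc7 light chains such as Slc7a5 reach the cell surface bound to a heavy chain of the Slc3 family, and import leucine and other large neutral amino acids in exchange for internal ones such as glutamine. Internal glutamine is supplied by the sodium-coupled Slc1 and Slc38 carriers. In cells short of amino acids the transcription factor ATF4 switches on several of these transporter genes together with genes of amino acid synthesis. Mature hepatocytes are known for liver carriers such as Slc38a3, Slc38a4, Slc7a2 and Slc43a1.

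The HepLPC group (n = 2 libraries) is progenitor-like cells grown from hepatocytes, and the NPC_LPC group (n = 2 libraries) is progenitor-like cells grown from the non-parenchymal fraction of the liver. Both were cultured in transition and expansion media, and the mice were C57BL/6, aged 6 to 8 weeks by the sample labels and 8 weeks by the protocol. The protocol lists tdTomato mice given AAV8-TBG-Cre, a virus that expresses Cre from a hepatocyte promoter, for the hepatocyte preparation, and AlbCreERT/R26GFP mice, in which the albumin promoter drives an inducible Cre, for the non-parenchymal one. If used so, mouse line and virus cannot be told apart from cell origin. In the cell type field, HepLPC is tied to hepatocytes as well as non-parenchymal cells, so the titles decided the grouping. The labels do not state whether replicates are separate mice or cultures.

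Total counts ran from 17575998 to 20625957 per library, and 3 counts, the floor for a gene with no reads, equal 0.148 to 0.169 CPM (CPM is a gene's count scaled by library size and TMM factor). Such floors cover counting error only. Where a pair of values is given for a group, replicate 1 stands before replicate 2. The labelled progenitor state was checked against marker lists. The sum of hepatocyte markers was 482 and 413 CPM in HepLPC, against 375 and 144 CPM in NPC_LPC, mostly from Hnf4a and Ass1. There was no read for Cyp2e1, Tat or Tdo2 and at most 2.28 CPM of Alb. Of the 12 hepatocyte markers 6 were tested by edgeR, 4 with a log2 fold change (HepLPC over NPC_LPC) above 0 and 2 below, with a median of 2.35. DESeq2 gave an adjusted p to 7 of the 12 and called 3 higher and 0 lower. Biliary and progenitor markers summed to 5773 and 3550 CPM in HepLPC and to 10535 and 5466 CPM in NPC_LPC. Of these 10 markers 8 were tested by edgeR, 5 with a log2 fold change above 0 and 3 below, with a median of 0.43. DESeq2 gave an adjusted p to 9 of them and called 1 higher and 1 lower. Over all genes it called 5.35% higher and 6.24% lower. Sox9 ran from 81.5 to 256 CPM, and Epcam stayed at or below 1.75 CPM. Stellate and myofibroblast markers summed to 549 and 689 CPM in HepLPC and to 2582 and 3687 CPM in NPC_LPC, nearly all of it Fbln2, while Lrat and Lum had no read. Endothelial markers summed to at most 7.44 CPM and leukocyte markers to between 15.2 and 81.7 CPM, mostly Cd68, with no read for Cd3e or Clec4f. Mesothelial markers summed to 521 and 1031 CPM in HepLPC and to 686 and 402 CPM in NPC_LPC, mostly Msln and Podxl. DESeq2 called 1 stellate or myofibroblast marker higher and 1 lower, and no endothelial, leukocyte or mesothelial marker. The part of these differences in the transporter values was not tested. In bulk RNA, fewer cells of a type and less RNA per cell cannot be told apart.

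Per length, the transporter RNA of both cultures was concentrated in a few members, and the Slc3, Slc7, Slc1 and Slc38 families were higher in both HepLPC libraries than in either NPC_LPC library. FPKM, the authors' value per transcript length and library size, summed over all 64 members to 528 and 602 in HepLPC replicates 1 and 2, against 401 and 343 in those of NPC_LPC. Over all genes FPKM summed to 326629 and 361213 in HepLPC, against 296698 and 312032 in NPC_LPC, and the family sums were not scaled for this. The Slc3 family summed to 101 and 161 FPKM in HepLPC, against 51.2 and 25.9 FPKM in NPC_LPC. The Slc38 family summed to 163 and 172 FPKM in HepLPC, against 93.5 and 95.7 FPKM in NPC_LPC. The libraries of each culture lay close together for Slc38 and far apart for Slc3. The Slc7 family, Slc7a6os included, summed to 142 and 137 FPKM in HepLPC and to 87.9 and 93.0 FPKM in NPC_LPC. The Slc1 family summed to 36.04 and 39.4 FPKM in HepLPC and to 16.8 and 16.5 FPKM in NPC_LPC. The Slc6 family ran the other way, at 77.0 and 80.6 FPKM in HepLPC, against 132 and 99.7 FPKM in NPC_LPC. Slc36 and Slc43 stayed between 3.79 and 10.2 FPKM in every library.

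**Figure D1:**
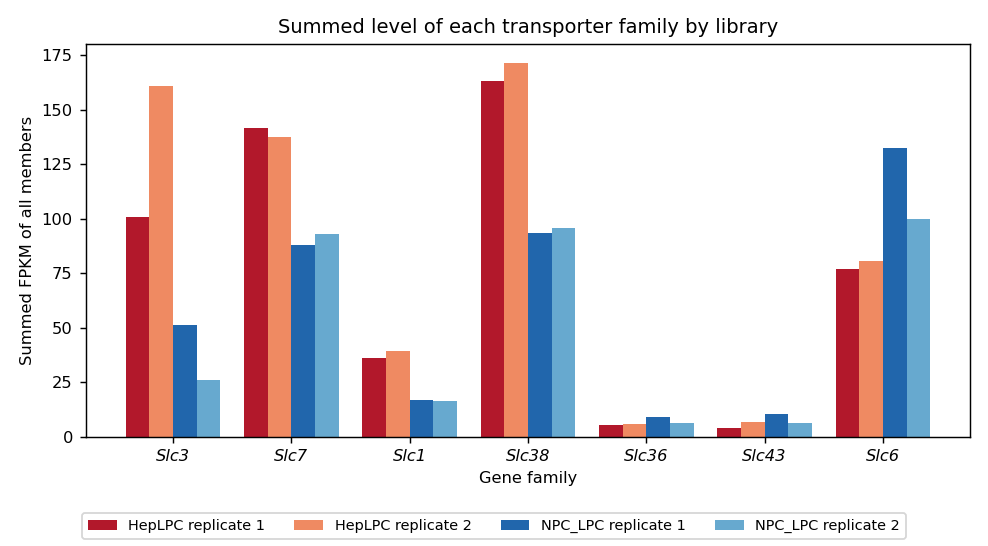
Summed FPKM of all members of each family (vertical axis) in HepLPC replicates 1 and 2 and NPC_LPC replicates 1 and 2 (bars, left to right in each family). In Slc3, Slc7, Slc1 and Slc38 both HepLPC bars stand above both NPC_LPC bars, and in Slc6 both stand below. The sums are not scaled for the total FPKM of each library.

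By mean FPKM the order was led by Slc3a2, Slc38a2 and Slc6a6, which together held 48.9 and 52.6% of the summed FPKM of the families in HepLPC and 47.3 and 39.8% in NPC_LPC. The leading place differed between the cultures. Slc3a2 ranked 1 in both HepLPC libraries, and 2 and 5 in NPC_LPC replicates 1 and 2. Slc6a6 ranked 3 in both HepLPC libraries and 1 in both NPC_LPC libraries. Slc38a2 ranked 2 in both HepLPC libraries, and 3 and 2 in those of NPC_LPC. Slc7a5 followed at rank 4 in both HepLPC libraries, and at 8 and 7 in NPC_LPC. In HepLPC, Slc3a2 was at 101 and 160.2 FPKM and Slc38a2 at 96.2 and 105 FPKM, so the gap between these neighbours was within the spread of Slc3a2.

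No member passed the edgeR quasi-likelihood test after Benjamini-Hochberg adjustment over all 12332 tested genes, where 0.43% of genes were called. At an unadjusted edgeR p under 0.05 there were 12 of the 31 tested members, 9 higher and 3 lower in HepLPC, or 38.7% of them, against 21.9% of all tested genes (10.4% higher and 11.5% lower). DESeq2 called 10 of the 34 members to which it gave an adjusted p, against 11.6% of all genes, and limma-voom called 0. Of those 10 members, 9 were higher in HepLPC, where DESeq2 called 5.35% of all genes, and 1 was lower, where it called 6.24%. The 10 are Slc3a2, Slc7a5, Slc7a1, Slc1a4, Slc1a5, Slc38a1, Slc38a2, Slc6a9 and Slc43a3, higher, and Slc1a2, lower. Their edgeR adjusted p lay between 0.0811 and 0.171. The 2 cultures did not overlap in CPM for 11 members that were higher and 7 that were lower in HepLPC, or 58.1% of the tested members, close to the 56.4% of all tested genes (27.9% higher and 28.6% lower). The median log2 fold change (HepLPC over NPC_LPC) was 0.43 over the 31 tested members and -0.003 over all tested genes. The median of the members depends on which are tested: it was -0.04 over the 46 members with any read, -0.05 over the 22 with a mean of at least 5 CPM, and -0.16 without HepLPC replicate 2. Because the tests need a minimum of reads, the edgeR counts leave out 33 members and the DESeq2 count leaves out 30.

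The DESeq2 calls changed whichever 1 library was left out. Such a fit leaves 1 library in a group, so its calls are not compared here with the share of all genes. In each of these settings fewer members were called than the 10 with all 4 libraries. Over all genes the calls also fell below the 1521 with all 4 libraries. The DESeq2 log2 fold change over these settings ran from 1.19 to 1.45 for Slc38a2 and from 1.41 to 4.74 for Slc43a3. Slc7a1, Slc1a4 and Slc38a1 were called in none of these 4 settings, and all 10 members kept their direction in each. The edgeR test called 1 member, Slc6a9, without NPC_LPC replicate 1, and 0 without any other library.

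**Figure D2:**
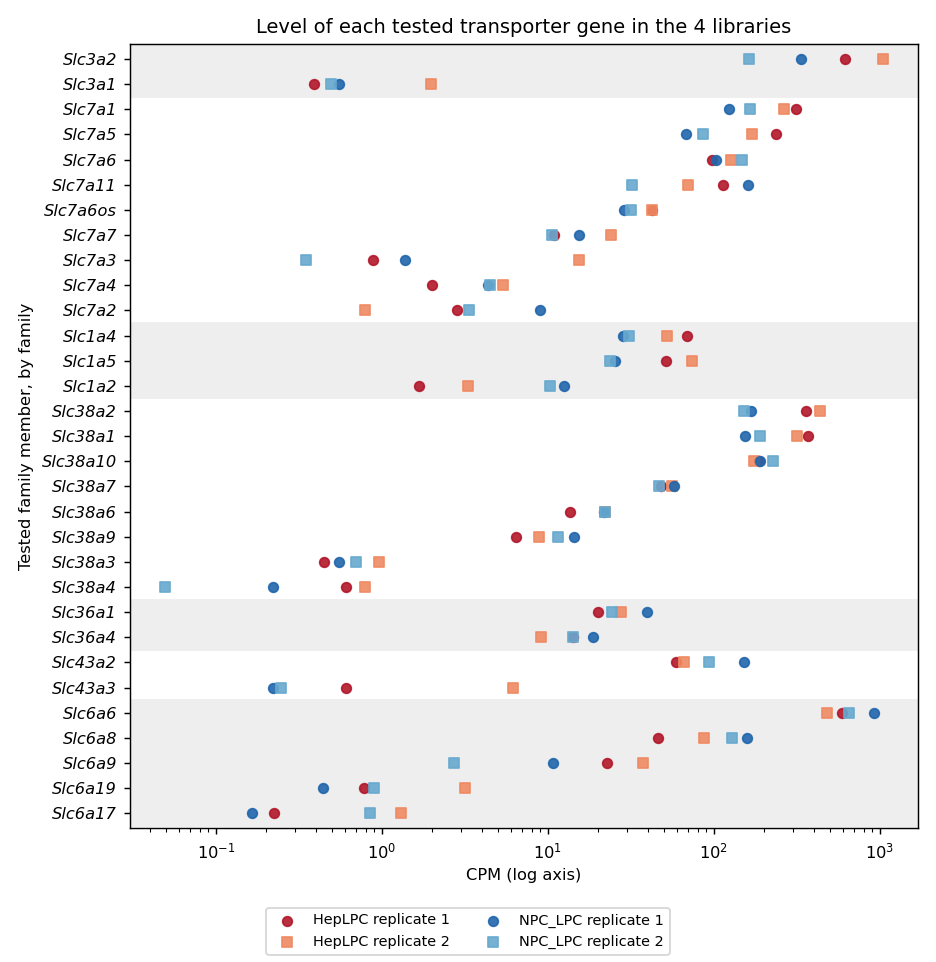
CPM on a log axis (horizontal) of each of the 31 tested members (rows, grouped by family with alternate shading) in the 4 libraries, with HepLPC in reds and NPC_LPC in blues. Slc3a2 spans 163 to 1042 CPM, and Slc7a11 is both highest and lowest in NPC_LPC.

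The heavy chain Slc3a2 (CD98 heavy chain; chromosome 19, 8706882 to 8723369 on mm10) had the most RNA per length of the members in HepLPC. It was at 616 and 1042 CPM in HepLPC, against 338 and 163 CPM in NPC_LPC. Both HepLPC libraries were above both NPC_LPC libraries, while the libraries of each culture differed by more than 1.5-fold. Slc3a2 averaged 829 ± 301 CPM in HepLPC and 250.3 ± 124 CPM in NPC_LPC (SD, n = 2 each), 3.31-fold higher (log2 fold change 1.73 with an SE of 0.46, adjusted p = 0.124 by edgeR and 0.0033 by DESeq2). Leaving out NPC_LPC replicate 1 gave a DESeq2 log2 fold change of 2.35. DESeq2 no longer called it without HepLPC replicate 2 (log2 fold change 1.32, adjusted p = 0.117) or without NPC_LPC replicate 2 (1.28, adjusted p = 0.074). The other heavy chain, Slc3a1, which pairs with Slc7a9 to take up cystine in kidney and gut, was low, at 0.389 and 1.97 CPM in HepLPC, against 0.549 and 0.495 CPM in NPC_LPC. Its exons share bases with Prepl on the opposite strand, and the strand setting of the counting is not given.

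Of the light chains that bind Slc3a2, DESeq2 called Slc7a5 alone. Slc7a5, which carries leucine and other large neutral amino acids (chromosome 8, 121881146 to 121907686), was at 236 and 171 CPM in HepLPC, against 68.4 and 85.7 CPM in NPC_LPC. The 2 cultures did not overlap, and Slc7a5 averaged 204 ± 45.9 CPM in HepLPC and 77.0 ± 12.2 CPM in NPC_LPC (SD, n = 2 each; log2 fold change 1.40 with an SE of 0.28, adjusted p = 0.0828 by edgeR and 0.000713 by DESeq2). It was 2.64-fold higher in HepLPC, and DESeq2 did not call it without HepLPC replicate 1 or without NPC_LPC replicate 1 (adjusted p = 0.0727 and 0.0704). Slc7a6, which exchanges cationic for neutral amino acids, was at 97.6 and 127 CPM in HepLPC, against 103 and 148 CPM in NPC_LPC, with overlapping groups (edgeR adjusted p = 0.784). Slc7a7, its close relative, was at 10.8 and 24.0 CPM in HepLPC, against 15.3 and 10.6 CPM in NPC_LPC, high in HepLPC replicate 2 only (edgeR adjusted p = 0.636). The exons of Slc7a7 overlap those of Oxa1l on the opposite strand. The light chain Slc7a8, another large neutral amino acid carrier, had 7 and 9 counts in HepLPC, against 0 and 1 in NPC_LPC, too few for the edgeR test, and DESeq2 did not call it (adjusted p = 0.353), while Slc7a10 had at most 1 count. Slc7a6os, which is counted with the members only by its name and shares no exon base with Slc7a6, was at 42.7 and 42.6 CPM in HepLPC, against 28.7 and 31.9 CPM in NPC_LPC (edgeR adjusted p = 0.31).

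Slc7a11, the cystine and glutamate exchanger that feeds glutathione synthesis (chromosome 3, 50364936 to 50499087), was set apart by the spread of NPC_LPC. It was at 114 and 69.5 CPM in HepLPC, against 162 and 32.0 CPM in NPC_LPC. NPC_LPC replicate 1 was the highest and NPC_LPC replicate 2 the lowest of the 4 libraries, and both HepLPC libraries lay between them. Slc7a11 had a log2 fold change of -0.08 with an SE of 0.72 (adjusted p = 0.964 by edgeR). Without NPC_LPC replicate 1 the edgeR log2 fold change was 1.53, and DESeq2 called it higher in HepLPC. Without HepLPC replicate 2 the edgeR log2 fold change was 0.23, and limma-voom on all 4 libraries gave 0.31. The direction therefore depends on the libraries and the method used.

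Set against each other per length, the heavy chain and its light chains stood in different proportions in the 2 cultures. The 6 light chains known to bind Slc3a2 (Slc7a5, Slc7a6, Slc7a7, Slc7a8, Slc7a10 and Slc7a11) summed to 92.3 and 84.7 FPKM in HepLPC replicates 1 and 2, against 60.9 and 60.6 FPKM in those of NPC_LPC. The ratio of Slc3a2 to this sum, in FPKM, was 1.09 and 1.89 in HepLPC and 0.838 and 0.425 in NPC_LPC. Both HepLPC ratios were above both NPC_LPC ratios, and each culture's libraries differed by more than 1.5-fold, and no test was run on the ratio. Slc7a5 made up 57.9 and 47.6% of the light chain FPKM in HepLPC and 25.8 and 33.7% in NPC_LPC. Slc7a6 made up 24.4 and 33.9% in HepLPC and 37.5 and 55.2% in NPC_LPC. Slc7a11 made up 13.8 and 8.26% in HepLPC and 27.8 and 5.84% in NPC_LPC.

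Among the cationic amino acid transporters, the Slc7 branch that needs no heavy chain, the widely expressed arginine and lysine carrier Slc7a1 accounted for most of the RNA. Slc7a1 (chromosome 5, 148327410 to 148399904) was at 314 and 264 CPM in HepLPC, against 123 and 165 CPM in NPC_LPC. It averaged 289 ± 35.1 CPM in HepLPC and 144 ± 29.4 CPM in NPC_LPC (SD, n = 2 each), 2.004-fold higher with no overlap (log2 fold change 1.002 with an SE of 0.27, adjusted p = 0.124 by edgeR and 0.018 by DESeq2). Slc7a2, the carrier of this branch typical of adult liver, was low and ran the other way, at 2.83 and 0.789 CPM in HepLPC, against 8.94 and 3.37 CPM in NPC_LPC. Its log2 fold change was -1.76 (SE 0.84), and neither edgeR nor DESeq2 called it (adjusted p = 0.287 and 0.203). Slc7a3, a carrier best known from brain, was at 0.889 and 15.3 CPM in HepLPC, against 1.37 and 0.346 CPM in NPC_LPC, so its level rested on 1 library. DESeq2 did not call it with all 4 libraries (adjusted p = 0.0569), and did without HepLPC replicate 1 or without NPC_LPC replicate 1. Slc7a4, whose transport activity is unclear, was at 1.999 and 5.35 CPM in HepLPC, against 4.33 and 4.50 CPM in NPC_LPC, and its exons overlap P2rx6 on the opposite strand.

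**Figure D3:**
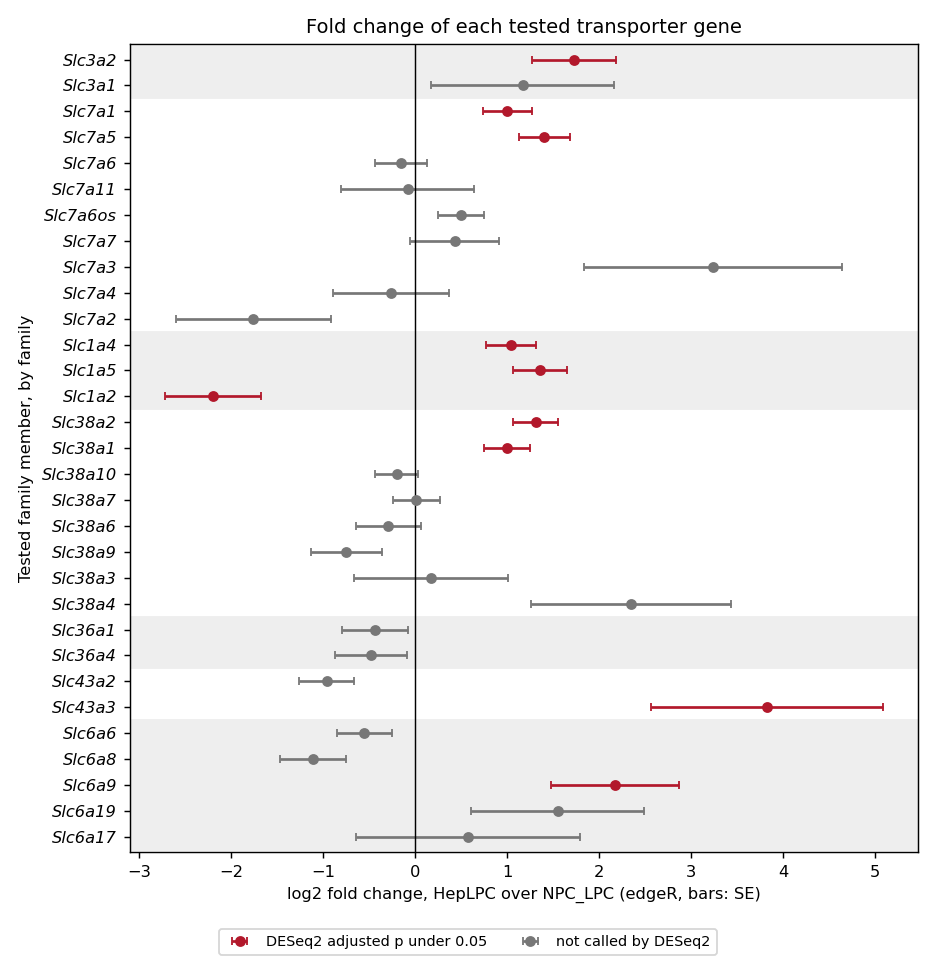
Log2 fold change of HepLPC over NPC_LPC (horizontal, bars are SE of the edgeR fit) for the 31 tested members in the same order as the CPM plot, with members called by DESeq2 in red. Of the red points 9 lie to the right of 0, and Slc1a2 alone lies to the left, at -2.20.

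In the Slc1 family the neutral exchangers and the glutamate carrier differed in opposite directions. Slc1a5, an obligate exchanger that imports glutamine (chromosome 7, 16781334 to 16798274), was at 51.2 and 74.3 CPM in HepLPC, against 25.4 and 23.7 CPM in NPC_LPC. It averaged 62.8 ± 16.3 CPM in HepLPC and 24.5 ± 1.23 CPM in NPC_LPC (SD, n = 2 each), 2.56-fold higher (log2 fold change 1.35 with an SE of 0.29, adjusted p = 0.0934 by edgeR and 0.00303 by DESeq2). DESeq2 called Slc1a5 without HepLPC replicate 1, and not without any other library (adjusted p = 0.0651 to 0.179). Slc1a4, an exchanger of alanine, serine and cysteine (chromosome 11, 20302180 to 20332713), was at 69.3 and 52.3 CPM in HepLPC, against 28.2 and 30.7 CPM in NPC_LPC and 2.06-fold higher (log2 fold change 1.05 with an SE of 0.27, adjusted p = 0.119 by edgeR and 0.023 by DESeq2). For both genes the 2 NPC_LPC libraries lay close together and below both HepLPC libraries. Slc1a2, a high-affinity glutamate carrier that in rodent liver marks the hepatocytes around the central vein (chromosome 2, 102658239 to 102790784), was at 1.67 and 3.32 CPM in HepLPC, against 12.6 and 10.3 CPM in NPC_LPC. It was 4.59-fold lower in HepLPC, with no overlap (log2 fold change -2.20 with an SE of 0.52, adjusted p = 0.106 by edgeR and 0.00329 by DESeq2). Its low level corresponds to 30 and 59 counts in HepLPC and 229 and 209 counts in NPC_LPC. DESeq2 still called it without HepLPC replicate 2, and not without any other library (adjusted p = 0.0922 to 0.192). The other glutamate carriers Slc1a1, Slc1a3, Slc1a6 and Slc1a7 had at most 2 counts in any library.

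In the Slc38 family, Slc38a1 and Slc38a2, the sodium-coupled importers of small neutral amino acids called system A, were both higher in HepLPC. Slc38a2, known to be induced when cells lack amino acids (chromosome 15, 96687392 to 96699728), was at 361 and 434 CPM in HepLPC, against 168 and 152 CPM in NPC_LPC. It averaged 397 ± 52.0 CPM in HepLPC and 160.0 ± 11.6 CPM in NPC_LPC (SD, n = 2 each), 2.48-fold higher, and had the smallest edgeR p of all members (log2 fold change 1.31 with an SE of 0.25, adjusted p = 0.0811 by edgeR and 0.000197 by DESeq2). DESeq2 called Slc38a2 without any 1 library except NPC_LPC replicate 2, where the adjusted p was 0.056. Slc38a1 (chromosome 15, 96571418 to 96643438) was at 372 and 316 CPM in HepLPC, against 155 and 190.2 CPM in NPC_LPC, 1.99-fold higher (log2 fold change 0.995 with an SE of 0.25, adjusted p = 0.116 by edgeR and 0.0117 by DESeq2). Slc38a4, the system A carrier typical of liver, lies next to them (chromosome 15, 96994816 to 97055956) and was barely detected, with 11 and 14 counts in HepLPC, against 4 and 1 in NPC_LPC (edgeR adjusted p = 0.274). All 3 are on chromosome 15, where the median log2 fold change of the 477 tested genes was 0.65 and 80.3% of genes were above 0. Relative to that median, Slc38a1 differed by 0.34 and Slc38a2 by 0.66 on the log2 scale, and the part of the chromosome in their values was not tested. The chromosome medians of the other 8 members called by DESeq2 lay between -0.61 (chromosome 4, for Slc6a9) and 0.24 (chromosome 19, for Slc3a2).

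The other Slc38 members showed no call by edgeR or DESeq2. Slc38a3, the liver glutamine carrier of system N, was at 0.444 and 0.958 CPM in HepLPC, against 0.549 and 0.693 CPM in NPC_LPC, and Slc38a5, its relative, had no count. Slc38a9, a lysosomal carrier that senses arginine for the growth regulator mTORC1, was at 6.44 and 8.90 CPM in HepLPC, against 14.4 and 11.4 CPM in NPC_LPC, lower in HepLPC without overlap (edgeR adjusted p = 0.32). Slc38a10 was at 188 and 176 CPM in HepLPC, against 191 and 227 CPM in NPC_LPC, a small difference without overlap (log2 fold change -0.20 with an SE of 0.23, adjusted p = 0.642 by edgeR and 0.743 by DESeq2). The lysosomal glutamine exporter Slc38a7 ranged from 46.6 to 57.2 CPM and Slc38a6 from 13.7 to 22.0 CPM over the 4 libraries, both with overlapping groups.

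The proton-coupled Slc36 carriers and the Slc43 family had low sums in both cultures. Slc36a1, which exports amino acids from lysosomes and imports them at the gut surface, was at 20.1 and 27.5 CPM in HepLPC, against 39.8 and 24.5 CPM in NPC_LPC (edgeR adjusted p = 0.513). Slc36a4 was at 14.3 and 9.13 CPM in HepLPC, against 18.6 and 14.1 CPM in NPC_LPC (edgeR adjusted p = 0.505). NPC_LPC replicate 1 was the highest library for both, and the groups overlapped. Slc43a2, a carrier of large neutral amino acids that works by facilitated diffusion, was at 59.1 and 66.6 CPM in HepLPC, against 151 and 93.7 CPM in NPC_LPC, 1.95-fold lower in HepLPC without overlap (log2 fold change -0.96 with an SE of 0.30, adjusted p = 0.159 by edgeR and 0.0701 by DESeq2). Slc43a1, its relative typical of liver, had 0 and 5 counts in HepLPC, against 9 and 2 in NPC_LPC. Slc43a3, which carries purine nucleobases rather than amino acids, was at 0.611 and 6.20 CPM in HepLPC, against 0.219 and 0.247 CPM in NPC_LPC. DESeq2 called it higher (adjusted p = 0.0294), but most of its reads came from HepLPC replicate 2. Without that library its DESeq2 log2 fold change was 1.41, against 3.87 with it, and it received no adjusted p. DESeq2 called it without HepLPC replicate 1, and without either NPC_LPC library its adjusted p was 0.142 and 0.141.

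In the Slc6 family 5 of 21 members entered the edgeR test, and DESeq2 called the glycine carrier Slc6a9 alone, higher in HepLPC. Slc6a6, which imports taurine (chromosome 6, 91684048 to 91759063), had the most RNA per length of all members in NPC_LPC and was at 594 and 478 CPM in HepLPC, against 927 and 651 CPM in NPC_LPC. The groups did not overlap, but the difference of 1.47-fold was not called (log2 fold change -0.56 with an SE of 0.30, adjusted p = 0.332 by edgeR and 0.317 by DESeq2). Slc6a8, the creatine importer (chromosome X, 73673133 to 73682502), was at 46.2 and 86.8 CPM in HepLPC, against 158 and 129 CPM in NPC_LPC, 2.16-fold lower in HepLPC (log2 fold change -1.11 with an SE of 0.36, adjusted p = 0.165 by edgeR and 0.0539 by DESeq2). Without HepLPC replicate 2 DESeq2 called Slc6a8 lower. Slc6a9, the glycine carrier (chromosome 4, 117835258 to 117869305), was at 22.7 and 37.7 CPM in HepLPC, against 10.7 and 2.72 CPM in NPC_LPC. It averaged 30.2 ± 10.6 CPM in HepLPC and 6.71 ± 5.64 CPM in NPC_LPC (SD, n = 2 each), 4.50-fold higher (log2 fold change 2.17 with an SE of 0.69, adjusted p = 0.165 by edgeR and 0.0144 by DESeq2), with NPC_LPC replicate 2 far below the rest. Without NPC_LPC replicate 1 the DESeq2 log2 fold change was 3.47, and without NPC_LPC replicate 2 it was 1.48 (adjusted p = 0.121). It was also not called without HepLPC replicate 1 or without HepLPC replicate 2 (adjusted p = 0.0546 and 0.276). Exons of Slc6a9 share 1429 bases with Ccdc24 on the opposite strand. Ccdc24 was at 0 and 2.03 CPM in HepLPC, against 1.76 and 2.43 CPM in NPC_LPC, where Slc6a9 was at 10.7 and 2.72 CPM. The exons also share 46 bases with B4galt2, at 0.167 and 9.18 CPM in HepLPC, against 14.7 and 21.6 CPM in NPC_LPC. The part of these neighbours in the Slc6a9 counts was not tested. Slc6a19, the neutral amino acid carrier of gut and kidney brush borders, was at 0.778 and 3.15 CPM in HepLPC, against 0.439 and 0.891 CPM in NPC_LPC. Slc6a17, a vesicle carrier of neurons, was at 0.222 and 1.30 CPM in HepLPC, against 0.165 and 0.841 CPM in NPC_LPC, near the floor.

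The remaining 33 members did not enter the edgeR test, and DESeq2 gave an adjusted p to 3 of them and called none of the 3. Of these, 26 had at most 3 counts in every library, and 18 of the 26 had no count at all. Members with no count included the GABA carrier Slc6a11, the betaine carrier Slc6a12, the noradrenaline and serotonin carriers Slc6a2 and Slc6a4, the glycine carrier Slc6a5, the broad carrier Slc6a14 and the proton-coupled Slc36a2 and Slc36a3. A count of 0 allows up to 0.148 to 0.169 CPM in a library. Another 7 had more than 3 counts in some library, namely Slc43a1, Slc6a13, Slc6a15, Slc6a18, Slc7a8, Slc7a9 and Slc7a14. Slc6a13, which imports GABA and taurine in mouse hepatocytes, had 0 and 11 counts in HepLPC, against 0 and 4 in NPC_LPC.

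Genes outside the families that ATF4 is known to induce were mostly higher in HepLPC, in the same direction as the Slc3a2, Slc7a5, Slc1a5, Slc38a2 and Slc7a1 transcripts. The Slc7a11 transcript did not share that direction, with overlapping groups and a log2 fold change of -0.08 (edgeR adjusted p = 0.964). Of the 27 genes in this list, all were tested, 25 had a log2 fold change above 0, and the median was 1.11, against -0.003 over all tested genes. DESeq2 called 15 of the 27 higher and 0 lower, where it called 5.35% of all genes higher. The edgeR test called 0 after adjustment and 18 at an unadjusted p under 0.05 (66.7%), all higher, against 10.4% of all genes. With any 1 library left out, DESeq2 called fewer genes of the list than the 15 with all 4 libraries. As for the members, these calls are not compared with the share of all genes.

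Atf4 itself (on chromosome 15) was at 637 and 769 CPM in HepLPC, against 376 and 235 CPM in NPC_LPC (log2 fold change 1.20 with an SE of 0.32, adjusted p = 0.125 by edgeR and 0.0106 by DESeq2). The serine synthesis gene Phgdh was at 717 and 798 CPM in HepLPC, against 267 and 222 CPM in NPC_LPC (log2 fold change 1.63 with an SE of 0.26, adjusted p = 0.0656 by edgeR and 9.61e-07 by DESeq2). The mitochondrial folate gene Mthfd2, with the smallest edgeR adjusted p of the list, was at 104 and 104 CPM in HepLPC, against 30.9 and 35.3 CPM in NPC_LPC (log2 fold change 1.65 with an SE of 0.23, adjusted p = 0.057 by edgeR and 2.24e-06 by DESeq2). In all 3 genes both HepLPC libraries were above both NPC_LPC libraries. Asns, which makes asparagine, was at 302 and 359 CPM in HepLPC, against 121 and 86.1 CPM in NPC_LPC (log2 fold change 1.67 with an SE of 0.28, adjusted p = 0.074 by edgeR and 1.88e-05 by DESeq2). Trib3, a pseudokinase that restrains this response, was at 24.8 and 29.9 CPM in HepLPC, against 8.01 and 5.59 CPM in NPC_LPC (DESeq2 adjusted p = 6.81e-05). Chac1, an enzyme that breaks down glutathione, was at 31.8 and 41.0 CPM in HepLPC, against 14.8 and 5.30 CPM in NPC_LPC (DESeq2 adjusted p = 0.0115). Not every gene of the list was higher in both HepLPC libraries than in both NPC_LPC libraries. Sesn2, an inhibitor of mTORC1 that senses leucine, was lower, at 62.1 and 80.0 CPM in HepLPC, against 84.3 and 96.0 CPM in NPC_LPC (edgeR adjusted p = 0.459). Ddit3, a stress-induced transcription factor, had overlapping groups, at 34.2 and 49.7 CPM in HepLPC, against 41.8 and 22.5 CPM in NPC_LPC (edgeR adjusted p = 0.599).

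**Figure D4:**
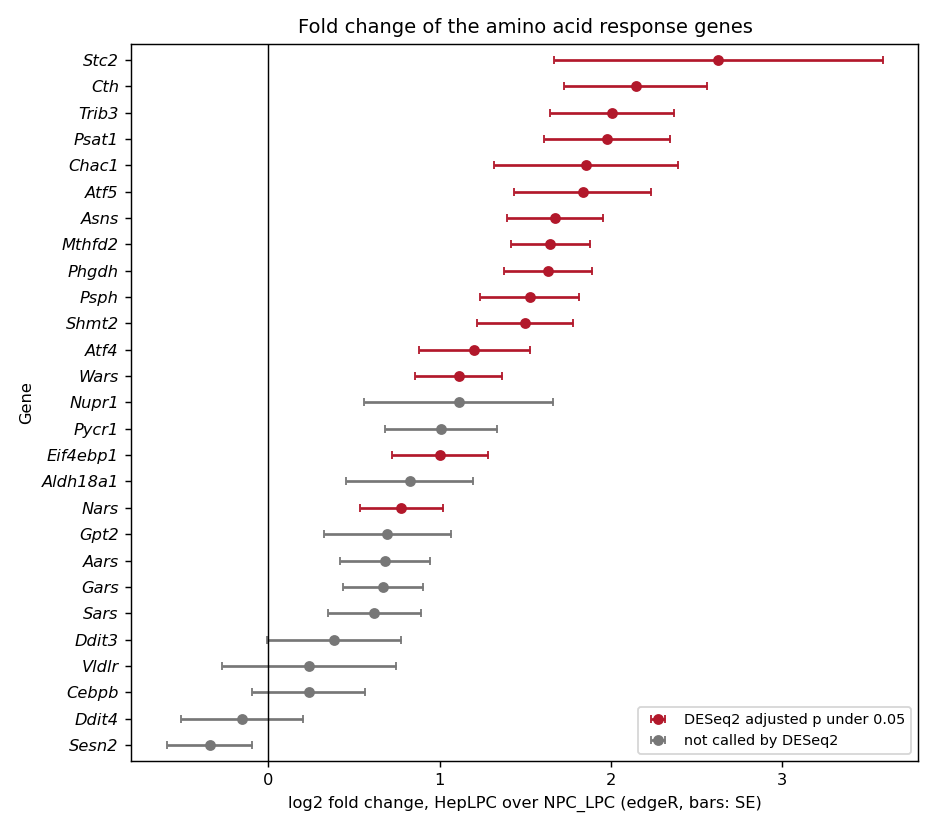
Log2 fold change of HepLPC over NPC_LPC (horizontal, bars are SE of the edgeR fit) for the 27 genes of the ATF4 list, ordered by value, with the 15 genes called by DESeq2 in red. Stc2 is highest at 2.63 and Sesn2 lowest at -0.34.

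The promoter sequences are shown because ATF4 acts through a short composite element that can be read in them. The motif searched was TGATGNAAN on both strands, in windows of 250 bases before to 50 bases after each gene start, taken from RefSeq on GRCm38.p6. Windows were found for 46 of the 64 members, and 3 of the 46 held a match (6.52%), against 4.5% of the 27025 genes with a window. In the ATF4 list, chosen for known regulation, 8 of 23 genes with a window held one (34.8%). Of the 10 members called by DESeq2, Slc1a4 held a match. A member without a match, or without a window, may hold the element outside the bases searched. The windows of Slc7a11 and Slc1a4 follow, 5′ to 3′ along the gene, with the matches in capitals; a match on the opposite strand reads as the reverse complement. In Slc7a11 a pair of matches faces each other, beginning 66 and 48 bases before the gene start, and in Slc1a4 the match begins 5 bases before the start.
Slc7a11 (chr3:50443564-50443863, minus strand): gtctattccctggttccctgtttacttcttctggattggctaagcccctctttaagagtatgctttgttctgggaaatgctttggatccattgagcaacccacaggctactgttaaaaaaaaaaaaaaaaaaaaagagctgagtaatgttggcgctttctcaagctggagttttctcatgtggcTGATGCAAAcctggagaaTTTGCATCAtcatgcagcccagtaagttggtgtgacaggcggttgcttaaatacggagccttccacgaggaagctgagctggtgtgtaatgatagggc
Slc1a4 (chr11:20332664-20332963, minus strand): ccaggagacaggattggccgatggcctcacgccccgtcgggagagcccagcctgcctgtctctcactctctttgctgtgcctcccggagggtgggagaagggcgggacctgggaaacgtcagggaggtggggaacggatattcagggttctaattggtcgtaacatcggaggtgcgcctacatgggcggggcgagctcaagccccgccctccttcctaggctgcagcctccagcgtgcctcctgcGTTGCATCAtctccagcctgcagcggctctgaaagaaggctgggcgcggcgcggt

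Shorter stretches of up to 41 bases around a match are shown for Slc7a7, the other member with any, and for 4 genes of the ATF4 list. They set the element of the transporters beside that of synthesis and stress genes. The Slc7a7 match shown begins 243 bases before the gene start, near the window edge. Another Slc7a7 window, from a different start, holds this match and a further one, not shown, beginning 141 bases before that start.
Slc7a7 (chr14:54417921-54417952, minus strand): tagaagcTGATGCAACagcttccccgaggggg
Asns (chr6:7693208-7693248, minus strand): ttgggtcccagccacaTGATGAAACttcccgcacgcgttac
Chac1 (chr2:119351032-119351072, plus strand): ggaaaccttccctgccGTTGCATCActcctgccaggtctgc
Nupr1 (chr7:126625557-126625597, minus strand): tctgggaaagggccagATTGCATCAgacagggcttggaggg
Pycr1 (chr11:120643827-120643867, minus strand): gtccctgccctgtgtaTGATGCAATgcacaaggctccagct
The 3 members with a match did not move alike. As given above, Slc1a4 was called higher in HepLPC by DESeq2, while Slc7a11 and Slc7a7 had overlapping groups. A match describes the letters only and shows no binding.

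Genes of lysosomal amino acid sensing, the pathway that Slc38a9 reports to, were more often lower than higher in HepLPC. All 30 genes of the list found in the tables were tested, 12 had a log2 fold change above 0 and 18 below, and the median was -0.36. The edgeR test called 0 after adjustment and 7 at an unadjusted p under 0.05, 1 higher and 6 lower. Of all tested genes 21.9% had such a p (10.4% higher and 11.5% lower). The 2 cultures did not overlap in CPM for 3 of the 30 that were higher and 16 that were lower. Over all tested genes these shares were 27.9 and 28.6%. DESeq2 called 2 of the 30, both lower, where it called 6.24% of all genes lower. They were Rragd, a small GTPase that tethers mTORC1 to lysosomes, at 1.28 and 5.69 CPM in HepLPC, against 81.9 and 18.7 CPM in NPC_LPC (log2 fold change -3.85 with an SE of 0.99, adjusted p = 0.118 by edgeR and 6.37e-05 by DESeq2), and its relative Rragc, at 55.0 and 71.2 CPM in HepLPC, against 137 and 108 CPM in NPC_LPC (log2 fold change -0.96 with an SE of 0.26, adjusted p = 0.129 by edgeR and 0.0383 by DESeq2). Rragd differed more than 4-fold between the NPC_LPC libraries. Both genes lie on chromosome 4, where the median log2 fold change of 727 tested genes was -0.61.

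Glutathione genes and the amino acid carriers of other families were described in the same way. Of 12 glutathione genes, all tested, edgeR called 0 after adjustment, and 3 had an unadjusted p under 0.05, against 21.9% of all tested genes. DESeq2 called 2 of the 12, both higher, where it called 5.35% of all genes higher, and these were Cth and Chac1, which are also in the ATF4 list. Gclc, the enzyme that commits cysteine to glutathione, was at 1532 and 1039 CPM in HepLPC, against 2511 and 911 CPM in NPC_LPC, the same order of libraries as Slc7a11. Of 24 carriers and partners outside the 7 families, 22 were in the tables and 12 were tested, with a median log2 fold change of -0.02. The edgeR test called 0 of the 12 after adjustment and 2 at an unadjusted p under 0.05, against 21.9% of all tested genes, and DESeq2 called 0, against 11.6%. The smallest p belonged to Slc16a10, an aromatic amino acid carrier, at 27.9 and 14.6 CPM in HepLPC, against 10.3 and 6.63 CPM in NPC_LPC (edgeR adjusted p = 0.186), and to the lysosomal carrier Pqlc2, at 8.33 and 15.2 CPM in HepLPC, against 27.5 and 23.2 CPM in NPC_LPC (edgeR adjusted p = 0.194).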

How the data were processed

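RNA was sequenced in 4 libraries of cultured mouse liver progenitor-like cells. Per the labels' protocols, a spin-column kit yielded the RNA and a stranded mRNA kit the libraries, read as pairs. Trimmomatic, HISAT2, HTSeq, Cufflinks and DESeq are named, with build mm10, per the submitters' processing notes; their versions, the annotation and the strand setting were not given in the sources used here. Per the file headers, the authors deposited a read count and an FPKM value per gene symbol for each library. The counts were whole numbers and were used for the tests, and FPKM for levels between genes and for alternatives.

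Genes were tested with edgeR 4.0.16 (glmQLFit and glmQLFTest, filterByExpr, TMM) in R 4.3.3, with group as the only term, two-sided, Benjamini-Hochberg adjusted over 12332 genes, threshold 0.05. SEs were derived from the F statistic. DESeq2 1.42.0 gave an adjusted p to 13127 genes. Exact permutation of 2 against 2 libraries cannot go below p = 0.333, so none was run, and p-values measure only the spread between these libraries. Gene positions and promoters came from RefSeq (GRCm38, called mm10), and exon overlaps from GENCODE on the same assembly.

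The members, the gene lists and the rule for named genes were chosen with earlier results of these data known. Members were named if edgeR or DESeq2 called them, if they were the 2 most abundant of a family, if they had 1 of the 6 largest or 6 smallest log2 fold changes among non-overlapping members with a mean of at least 5 CPM, or by role. Of each pathway list, members called by edgeR or, where there were none, the 2 with the smallest p were to be named; other genes, and members outside the rule, were chosen after their values were seen. Alternatives were other scaling, filters on low counts, DESeq2, limma-voom (limma 3.58.1), limma on log2(FPKM + 1) and log2(FPKM + 0.1), the replicate number as a block, and leaving out each library. DESeq2 without each library and with the block was added after seeing the data.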

Additional observations from a re-analysis of the deposited data

How the results depend on the processing

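With 2 libraries a group, counts of calls moved with the test and the libraries. The edgeR test called 53 genes in all and 0 members. Over all genes the count was 593 with no filter on low counts, 80 with a mean of at least 5 CPM, 1521 with DESeq2, 5 with limma-voom, 111 with limma on log2(FPKM + 1) at a mean FPKM of 0.5 or more, 0 with the same but no filter (2820 at an unadjusted p under 0.05), and 0 to 377 without 1 library. Members called numbered 2 with no filter (Slc38a2 and Slc7a5), 10 with DESeq2, and 0 to 1 without 1 library. DESeq2 called 1 to 5 members, 7 to 12 ATF4 list genes and 780 to 934 genes in all without 1 library. The cause was not tested.

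Same-numbered libraries did not deviate together (r = -0.046 over 12332 genes). A correlation over all genes cannot tell whether they share a mouse, a culture or a day, and the labels do not say. With the replicate number as a block, edgeR called 136 genes and 0 members, and DESeq2 called 6 members, all among its 10, 13 ATF4 list genes, all among its 15, and 1084 genes in all.

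For 25 named members, 308 of 334 alternative values kept the direction and the side of the threshold, 13 became called and 13 changed direction. Slc7a11 was 0.31 with limma-voom, 0.22 (both filters) and 0.28 with limma on FPKM, 0.30 with the replicate block, and -0.82 to 1.53 without 1 library. Slc38a3 was -0.035 with limma on unfiltered FPKM and -0.48 to 0.63 without 1 library. Without 1 library Slc3a1 ranged from -0.42 to 1.92, Slc7a6 from -0.38 to 0.13 and Slc7a7 from -0.26 to 0.90. Other scaling factors moved the median log2 fold change of all genes by less than 0.1. Depth limits the members with few reads, such as Slc38a4, Slc3a1 and Slc6a19.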

Other observations

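Several members left out of the edgeR test had all or nearly all of their reads in some libraries. Slc6a13, a GABA and taurine carrier, had 0 and 11 counts in HepLPC, against 0 and 4 in NPC_LPC. Slc6a15, a carrier of branched-chain amino acids best known from brain, had 7 and 0 counts in HepLPC, against 12 and 0 in NPC_LPC. Slc6a13 was thus seen in the libraries numbered 2 and Slc6a15 in those numbered 1. Slc6a18, a neutral amino acid carrier of the kidney brush border, had 0 and 0 counts in HepLPC, against 0 and 22 in NPC_LPC. Slc7a9, the partner of Slc3a1, had 6 and 2 counts in HepLPC, against 0 and 0 in NPC_LPC. DESeq2 gave Slc6a15 and Slc6a18 an adjusted p of 0.928 and 0.36, and none to Slc6a13 or Slc7a9.

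Members set mainly by HepLPC replicate 2 were Slc7a3, with 16 and 272 counts in HepLPC, against 25 and 7 in NPC_LPC, and Slc43a3, with 11 and 110 counts in HepLPC, against 4 and 5 in NPC_LPC. Slc6a19 was also highest there, with 14 and 56 counts in HepLPC, against 8 and 18 in NPC_LPC. These members were singled out after their values were seen.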
